A study of Mus musculus with 6 samples.

Results

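GFP positive fibroblasts of the proximal aorta were cells with fibroblast transcripts in which the RNA of a lineage tracer was found. The cells were chosen by 3 measured values. A cell was counted as a fibroblast when it held at least 20 unique molecular identifiers (UMIs, counted once for every transcript molecule caught) of Dcn and fewer than 5 of Myh11 per 10000 UMIs, and as GFP positive when at least 1 UMI of the added feature GFP was among them. Only libraries with 100 or more GFP UMIs over all cells past the quality limits were used. There were 254 such cells among 10200 fibroblasts of 4 libraries, and 24972 cells past the quality limits in 6 libraries. Each was set beside 5 fibroblasts of the same library that held no GFP UMI and had the nearest number of UMIs (1270 cells, here called matched fibroblasts).

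The libraries were made with 10x Genomics 3' v3 chemistry from proximal aortas (root to ascending segment) of 6 mice, all female, 16 weeks old and on a 129SVE background. The labels list 4 control (CTL) mice with Tgfbr1+/+ and 2 Loeys-Dietz syndrome (LDS) mice with Tgfbr1M318R/+, a heterozygous missense change in the type I TGF-beta receptor. They add Wnt2CRE and EGFP-L10a to the genotype of 2 of the CTL mice and to no LDS mouse. Neither the labels nor the files pair a mouse with a library, so no library was given a genotype, LDS and CTL cells were not compared, and values are given per library. GFP positive and matched fibroblasts of the same library can be compared without the genotype, and 1 test of this kind over all genes is given below.

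The tracer is a fusion of enhanced green fluorescent protein with the ribosomal protein L10a, transcribed only after a Cre recombinase has removed a stop signal in the cell or in one of its ancestors. Here the Cre is driven by a Wnt2 promoter that the study uses for cells derived from the cardiac neural crest (CNC). In mice, CNC cells migrate into the outflow tract and give rise to smooth muscle of the ascending aorta and arch, while smooth muscle of the aortic root comes largely from the second heart field. Adventitial fibroblasts, which produce collagens, proteoglycans and elastic fiber proteins, have several embryonic sources. The recombined tracer gene is passed on to daughter cells, so a GFP UMI need not mean Wnt2 transcription in the adult cell. A single GFP UMI may also be RNA released by another cell, and descent of these fibroblasts from the CNC was not tested.

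The libraries went against the labels in 1 respect. GFP UMIs over cells past the quality limits numbered 263, 201, 157 and 258 in libraries 1 to 4 and 8 and 6 in libraries 5 and 6, so that 4 libraries held tracer RNA where the labels list the tracer in 2 mice. All results on GFP positive cells therefore rest on 4 libraries of unknown genotype, and values without each library are given where they matter. Among cells past the limits, 76 barcodes occurred in 2 libraries, and no GFP positive fibroblast had its barcode in another library. Sums of UMIs over cells past the limits ran from 18218282 to 38105145 per library.

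The limits for Dcn, which codes for the proteoglycan decorin, and Myh11, smooth muscle myosin heavy chain, chose these cells and are given as a description. Library 1 held 53 GFP positive fibroblasts, library 2 held 39, library 3 held 56 and library 4 held 106. Most of them were identified by a single transcript, since 212 held 1 GFP UMI, 30 held 2 and 12 held 3 or more, 311 GFP UMIs in all. The median of Dcn was 123 UMIs per 10000 in GFP positive and 129 in matched fibroblasts, and the lowest GFP positive cell lay at 25.1. Near the Dcn limit, 5 GFP positive fibroblasts lay between 20 and 30 and 3 GFP positive cells with low Myh11 lay just outside, between 10 and 20. Near the Myh11 limit, 4 lay between 4 and 5 and 1 GFP positive cell with enough Dcn lay between 5 and 6. No Myh11 UMI was found in 234 of them (92.1%), against 92.5% of matched fibroblasts.

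Markers of fibroblasts were present at the level of the other fibroblasts. Of 12 measured markers, 7 were higher and 5 lower in GFP positive cells over the summed libraries, with a median log2 ratio of 0.04 against 0.01 over all measured genes. Col1a1, a chain of type I collagen, stood at 3020.5 CPM (its UMIs divided by all UMIs and scaled to a common total) against 2965 in matched fibroblasts, Lum (lumican) at 4912 against 4553 and Pdgfra, a receptor on fibroblasts, at 212 against 214. A further marker, Gsn (gelsolin, which severs actin filaments), was lower by a log2 ratio of -0.66 and passed the size limit given below. Several defining markers of leukocytes, glia and endothelium were at or near 0 in the 254 cells, while smooth muscle transcripts were present and are described with the contractile genes. Of 9 leukocyte markers 4 had no UMI (Ptprc, C1qa, Cd3e and Cd52), and 452 of the 462 UMIs of the list were of Cd74, the invariant chain of MHC class II, with 54.9% of them in 1 cell. The list summed to 23.4, 2.06, 705 and 152 CPM in libraries 1 to 4 against 30.0, 401, 103 and 419 CPM in matched fibroblasts, with no common direction. Of 9 glial markers 4 had no UMI, Sox10, Mbp and Kcna1 among them, and the whole list held 147 UMIs. Its summed level was 51.5 to 107 CPM over the 4 libraries in GFP positive and 73.8 to 124 CPM in matched fibroblasts. Of 8 endothelial markers Vwf had no UMI and Cdh5 had 9. The summed level of the endothelial markers was 20.6 to 106 CPM over the 4 libraries in GFP positive and 38.8 to 154 CPM in matched fibroblasts.

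GFP UMIs were found in a few percent of fibroblasts in each of the 4 libraries. The share was 3.79% in library 1 (53 of 1399 cells, 95% exact binomial interval 2.85% to 4.93%), 2.11% in library 2 (39 of 1850, 1.5% to 2.87%), 1.88% in library 3 (56 of 2983, 1.42% to 2.43%) and 2.67% in library 4 (106 of 3968, 2.19% to 3.22%). The interval of library 1 lay above that of library 3 and overlapped those of libraries 2 and 4. Intervals cover counting error alone. In libraries 5 and 6, 4 of 1981 (0.202%) and 2 of 862 fibroblasts (0.232%) held a GFP UMI. After each cell was thinned to 3000 UMIs, which left out 855 shallower cells, the shares in libraries 1 to 4 were 1.60%, 0.957%, 0.844% and 1.42%.

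Smooth muscle cells, taken as cells with at least 20 Myh11 and fewer than 20 Dcn UMIs per 10000, held GFP more often. Their shares in libraries 1 to 4 were 10.5%, 12.7%, 3.78% and 5.67%, each with an interval above that of the fibroblasts of the same library. Smooth muscle cells were deeper, and after thinning the shares were 4.08%, 3.74%, 1.62% and 3.62%, with an interval in library 3 (0.887% to 2.70%) that overlapped that of its fibroblasts (0.536% to 1.26%). Pooled over the 4 libraries, 7.66% of smooth muscle cells and 2.49% of fibroblasts held a GFP UMI, and 3.29% and 1.19% after thinning, at median depths of 7834.5 and 6154.5 UMIs before it. Leukocytes, which do not come from the neural crest, were taken as a class for comparison. Whether their GFP UMIs were free RNA was not tested. In 233 leukocytes with a median of 5227 UMIs, 2 held a GFP UMI (0.858%, 0.104% to 3.07%), and after thinning 1 of 195 (0.513%). The interval of the leukocytes contains the pooled share of the fibroblasts, so with this number of leukocytes the 2 shares could not be told apart. Of 287 endothelial cells, 14 held a GFP UMI (4.88%, 2.69% to 8.05%), 5 of 71 in library 3 and 9 of 153 in library 4. The endothelial share was above the pooled share of fibroblasts, also after thinning (3.23%, 1.31% to 6.53%, against 1.19%). The source of these GFP UMIs was not tested. None of the 40 and 23 endothelial cells of libraries 1 and 2 held one, which allows shares of up to 7.5% and 13.0%.

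**Figure D1:**
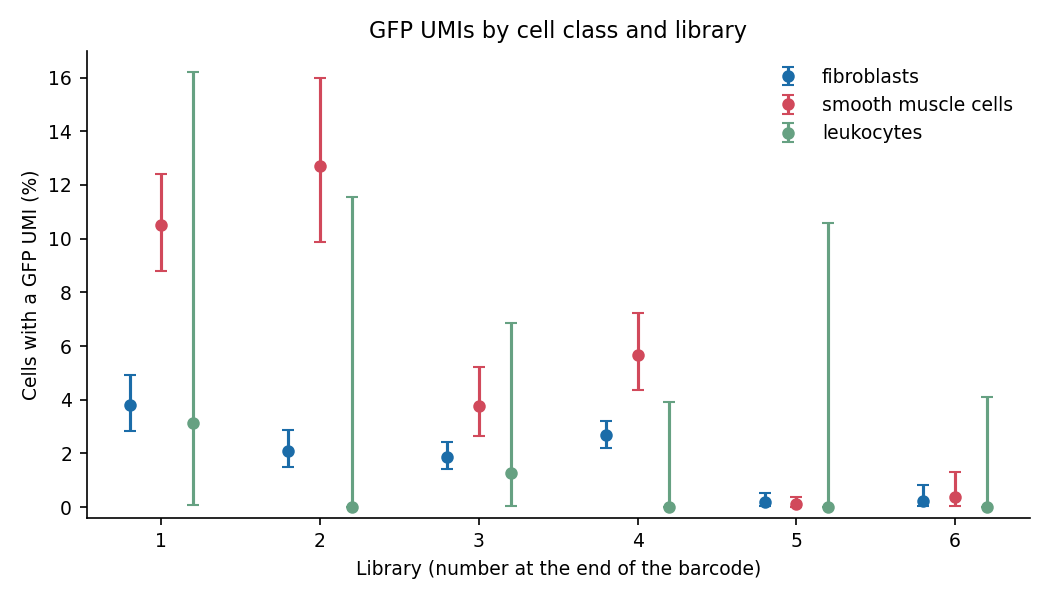
Share of cells with a GFP UMI (percent) in fibroblasts, smooth muscle cells and leukocytes of libraries 1 to 6. Points are shares and bars are 95% exact binomial intervals. Endothelial cells are not shown. Fibroblasts lay between 1.88% and 3.79% in libraries 1 to 4 and at or under 0.232% in libraries 5 and 6, and smooth muscle cells lay above them in libraries 1 to 4.

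RNA released from smooth muscle cells would carry GFP and smooth muscle transcripts together, in the ratio found in smooth muscle cells. From that ratio and the smooth muscle transcripts counted in fibroblasts, the number of GFP UMIs that such RNA would bring was computed for 5 genes, taking all of those transcripts as free RNA. The 790 Myh11 UMIs of the fibroblasts came with 2.93 expected GFP UMIs where 311 were observed, which was 106 times as many, but Myh11 also chose the cells. For Cnn1 (calponin), which had no part in the choice, 5.79 GFP UMIs were expected, for Des (desmin) 9.12, for Acta2 (smooth muscle actin) 15.3 and for Tagln (transgelin) 24.6. The observed number was 53.8, 34.1, 20.3 and 12.7 times these values. The smallest ratio in a single library was 6.5, for Tagln in library 2, where 49 GFP UMIs were observed. In leukocytes the same calculation gave 0.145 expected GFP UMIs for Cnn1, 0.431 for Des, 0.165 for Acta2 and 0.25 for Tagln. There 3 were observed, in 2 cells, so that leukocytes also held more than expected by each of these genes. The cause of the excess was not tested in either kind of cell.

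Rpl10a codes for the large ribosomal subunit protein that is fused to EGFP in the tracer. Its UMIs were not used in choosing the cells, but the tracer RNA codes for both proteins, so the 2 values are not independent. Whether the Rpl10a UMIs came from the tracer or from the gene itself was not tested. The gene (ENSMUSG00000037805, mm10 chr17:28328471-28331033, plus strand) stood at 1555, 1982, 1895 and 1622 CPM in GFP positive fibroblasts of libraries 1 to 4. In matched fibroblasts it stood at 879, 1327, 909 and 815 CPM, lower in every library. Of all measured genes, 9.06% were higher in GFP positive fibroblasts in all 4 libraries. Over the summed libraries it was 1.81-fold higher (log2 ratio 0.86, 95% interval 0.80 to 0.91). This interval and those of the ratios below cover counting error alone. Of the other 79 measured ribosomal protein genes none was called and their log2 ratios ran from -0.27 to 0.24, with a median of -0.07. Per cell, 14.5 Rpl10a UMIs were found in GFP positive and 8.00 in matched fibroblasts, a difference of 6.53 where GFP itself gave 1.22 UMIs. Cells with 1, 2 and 3 or more GFP UMIs had 1652, 2332 and 2330 CPM of Rpl10a.

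The excess of Rpl10a could also be read cell by cell. Among fibroblasts of libraries 5 and 6 with at least 5000 UMIs, the 99th percentile of the share of Rpl10a in all ribosomal protein UMIs was 1.56%, and this limit, chosen after the data were seen, was applied to libraries 1 to 4. It was exceeded by 51.1%, 30.6%, 46.8% and 40.3% of GFP positive fibroblasts of libraries 1 to 4, and by 9.91%, 2.44%, 4.76% and 5.73% of fibroblasts without a GFP UMI. All 4 pairs of intervals were apart. Pooled, 85 of 200 GFP positive fibroblasts (42.5%, 35.6% to 49.7%) and 348 of 6654 GFP=0 fibroblasts (5.23%, 4.71% to 5.79%) lay above it. In smooth muscle cells of libraries 1 to 4 the shares were 86.6% with and 28.5% without a GFP UMI. The limit was set on fibroblasts, and 3.51% and 11.6% of GFP=0 smooth muscle cells of libraries 5 and 6 already lay above it.

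**Figure D2:**
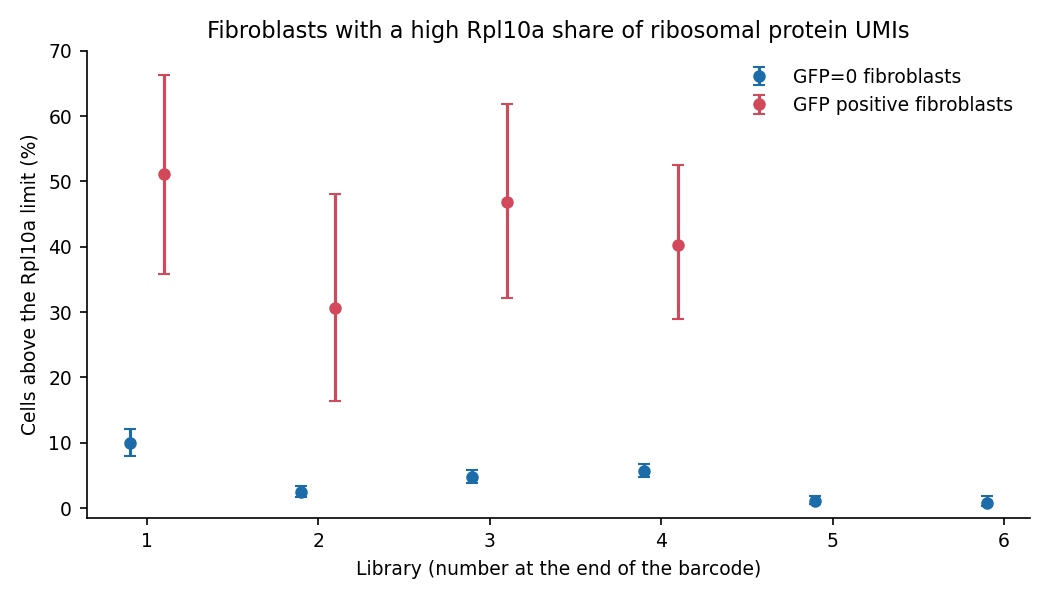
Share of fibroblasts with at least 5000 UMIs (percent) whose Rpl10a share of ribosomal protein UMIs exceeded 1.56%, for cells with and without a GFP UMI. Bars are 95% exact binomial intervals. GFP positive fibroblasts lay between 30.6% and 51.1%, and GFP=0 fibroblasts lay between 2.44% and 9.91% in libraries 1 to 4 and at or under 1.07% in libraries 5 and 6, where GFP positive cells were too few to plot.

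The remaining transcripts were compared over 2915 genes with a mean of at least 50 CPM. A gene was called when its summed CPM differed 1.5-fold or more and it had the same direction in all 4 libraries. By this rule 17 genes, Rpl10a among them, were higher in GFP positive fibroblasts (0.583% of those measured) and 27 were lower (0.926%). Without a minimum size, 9.06% of measured genes were higher and 8.16% lower in all 4 libraries. GFP positive fibroblasts held more transcripts of Eln (tropoelastin), of contractile genes, of a type IV collagen chain and of Cpxm2. They held fewer transcripts of the chemokine genes Ccl2 and Ccl7, of Has1 and Tnfaip6, of the complement gene C3 and of the transcription factor gene Tcf21.

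The spread between libraries was taken into account by a test added after the values had been seen, the quasi-likelihood test of edgeR with the library as a block. By its Benjamini-Hochberg adjusted p, 2 genes were higher (0.0686% of those measured), Rpl10a (adjusted p = 0.0149) and St5 (0.0488). The test gave 8 lower genes (0.274%), of which 7 were among the 27, Tcf21 (0.00949), Ccl2 (0.0149), Ccl7 (0.0149), Gpx3 (0.0424), which codes for a secreted glutathione peroxidase, Ptx3 (0.0461), Prg4 (0.0469) and Ptgs2 (0.0488). The eighth, the hemoglobin gene Hbb-bs, was not lower in all 4 libraries. The other 15 and 20 genes called by size did not pass, with edgeR adjusted p = 0.0857 for Eln, 0.114 for Col4a6, 0.0754 for C3, 0.17 for Has1 and 0.181 for Tnfaip6.

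Few of these results held under every change of the cells compared. Matched on smooth muscle UMIs as well, Rpl10a (edgeR adjusted p = 0.0101), Ccl7 (0.0101) and Tcf21 (0.0477) passed again. C3 (0.0435) and Spp1 (0.0393) passed as well, lower, as did a gene of the multicopy Ccl21 family, higher, whose counts are uncertain. Ccl2 (edgeR adjusted p = 0.0519), Ptgs2 (0.191), Gpx3 (0.402), St5 (0.406), Ptx3 (0.538) and Prg4 (0.538) no longer passed. Without library 1 no gene passed in edgeR, with 124 higher and 114 lower at an unadjusted p under 0.05, and the adjusted p of Tcf21 was 0.0932 and that of Rpl10a 0.104. Without any 1 of the other libraries, Rpl10a, Tcf21, Ccl2 and Ccl7 passed each time. The test has 4 libraries of unknown genotype. Its p-values set the difference between GFP positive and matched fibroblasts against the spread of that difference between libraries.

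Smooth muscle transcripts moved with the comparison. Counting all smooth muscle markers but Myh11, GFP positive fibroblasts held 32.7 UMIs per cell and matched fibroblasts 19.0. The summed level of the whole list was 2581, 2124, 5888 and 4767 CPM in GFP positive fibroblasts of libraries 1 to 4 against 2292, 2040.1, 2816 and 2171 CPM. When fibroblasts were matched on these UMIs as well (31.5 per matched cell), the genes called higher numbered 2, Rpl10a and Col4a6, and those called lower 16, of which 14 were among the 27. The 13 lower genes that lost the call were Vit, Ptx3, Thbs1, Comp, Angptl7, Ms4a4d, Maged2, Gsn, Icam1, Tst, Myc, Thbs2 and Ptn, and 6 of them (Thbs1, Comp, Angptl7, Myc, Thbs2 and Ptn) were then higher in 1 library. The numbers of calls thus depended on the smooth muscle transcripts in the matched cells, more for the higher than for the lower genes, and the part of smooth muscle RNA or of attached cells in the higher genes was not tested further. Without library 1 the numbers called higher and lower were 32 and 42, without library 2 they were 28 and 36, without library 3 they were 29 and 53, and without library 4 they were 21 and 34. High doublet scores were found in 6.30% of GFP positive and 5.43% of matched fibroblasts. Within libraries 1 to 4 these shares were 1.89%, 12.8%, 7.14% and 5.66% against 2.64%, 5.64%, 5.36% and 6.79%.

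**Figure D3:**
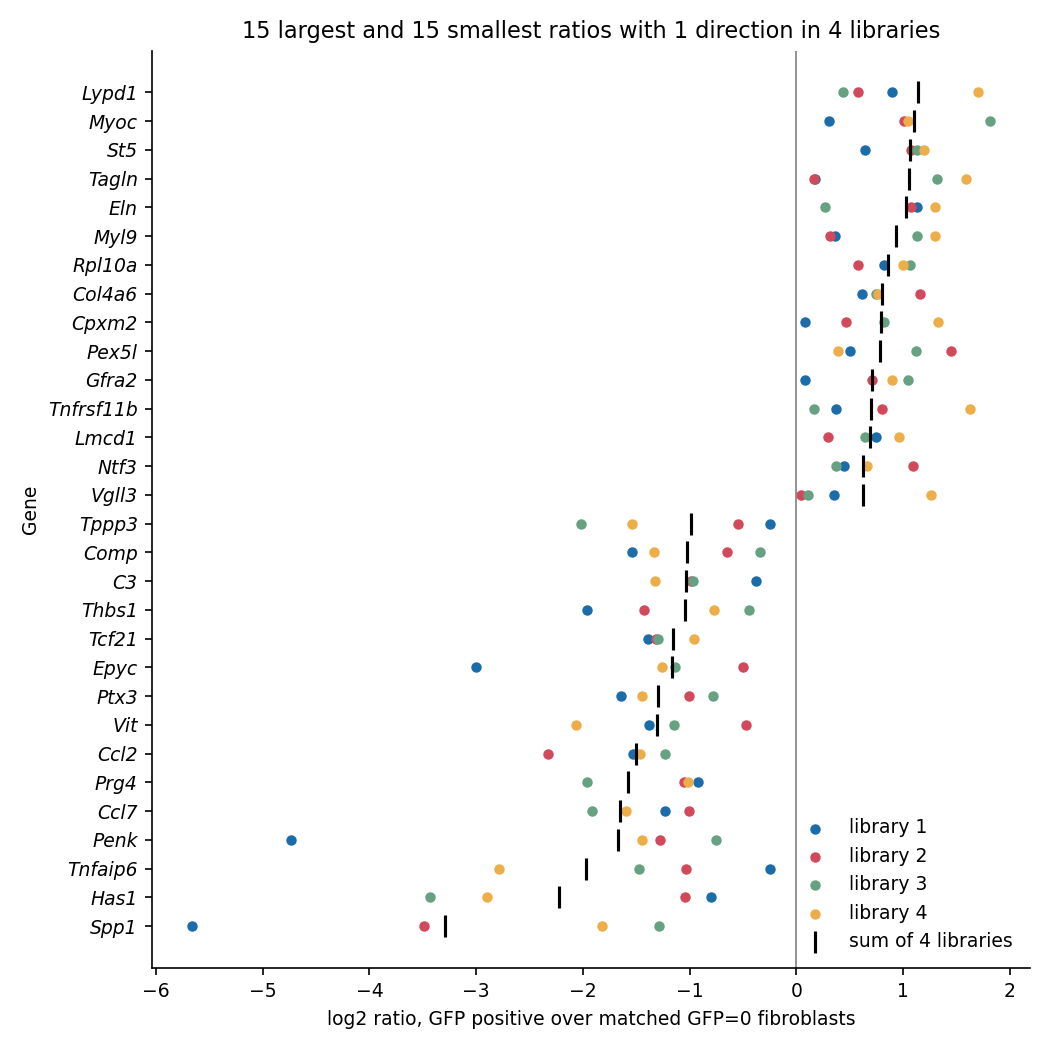
Log2 ratio of CPM in GFP positive over matched GFP=0 fibroblasts for the top 15 and the bottom 15 genes by ratio among those with the same direction in libraries 1 to 4. Dots are libraries and black bars the sums, which run from 1.13 for Lypd1 to -3.29 for Spp1.

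Among elastic fiber genes, Eln had the largest ratio. Eln (ENSMUSG00000029675, mm10 chr5:134702593-134747323, minus strand) codes for tropoelastin, the monomer of elastin. It stood at 2595, 1528, 825 and 1572 CPM in GFP positive fibroblasts of libraries 1 to 4 and at 1186, 728, 688 and 638 CPM in matched fibroblasts. Libraries 1, 2 and 4 had log2 ratios of 1.13, 1.07 and 1.30, and library 3 had 0.26. Over the sums Eln was 2.04-fold higher (log2 ratio 1.03, 0.97 to 1.09 by counting error alone). An Eln UMI was held by 78.7% against 64.6% of cells. The edgeR adjusted p of Eln was 0.0857. Matched on smooth muscle UMIs as well, its log2 ratio was 0.73 and 1 library went the other way.

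The elastic fiber list as a whole was close to the other genes. Of its 18 measured genes 12 were higher and 6 lower, with a median log2 ratio of 0.13 against 0.01 over all measured genes, and Eln alone was called. Ltbp1, which binds latent TGF-beta to the matrix, was higher in all 4 libraries with a ratio under the limit (187 against 130 CPM, log2 ratio 0.52). The smallest ratios were those of the fibulins Fbln2 (344 against 437 CPM, -0.34) and Fbln1 (2140.2 against 2530.5 CPM, -0.24), lower in all 4 libraries and not called.

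Collagens split by type. The chains of type IV collagen, which form networks in basement membranes, were the highest of the 12 measured non-fibrillar collagen genes. Col4a6 (ENSMUSG00000031273, mm10 chrX:141165403-141474076, minus strand) stood at 112, 82.4, 57.2 and 74.5 CPM in libraries 1 to 4, against 73.1, 36.7, 33.9 and 43.7 CPM in matched fibroblasts. It was 1.75-fold higher (log2 ratio 0.80, 0.54 to 1.06), was found in 40.2% against 26.4% of cells and kept its call by size when smooth muscle UMIs were matched too (0.63). The edgeR adjusted p of Col4a6 was 0.114, and 0.402 after that matching. Its neighbour on the chromosome Col4a5 had a log2 ratio of 0.56 (152 against 103 CPM) and Col4a1 of 0.43 (316 against 235 CPM), higher in all 4 libraries but under the limit. Col4a2 (0.58) and Col4a3 (0.40) were higher in 3 libraries. The type VI collagen genes Col6a2 and Col6a3 lay at -0.04 each. The 5 measured fibrillar collagens had a median of 0.06 and log2 ratios between 0.03 and 0.20, with none called.

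Contractile genes differed most in libraries 3 and 4. Of the 9 measured smooth muscle markers all were higher over the sums, 3 in all 4 libraries (9.06% of all genes were), and 2 were called. The list's median log2 ratio was 0.18, 0.10, 0.75 and 0.90 in libraries 1 to 4, and 0.44 over the sums, or 0.23 without library 4. Tagln, which codes for an actin-binding protein, stood at 649, 750, 2171 and 1678 CPM in GFP positive and at 575, 669, 875 and 560 CPM in matched fibroblasts. Libraries 1 and 2 thus differed by 0.18 and 0.16 on the log2 scale and libraries 3 and 4 by 1.31 and 1.58. Myl9, a regulatory light chain of myosin, had the same order, with 0.36, 0.31, 1.13 and 1.30. Over the sums Tagln was 2.07-fold and Myl9 1.91-fold higher, with edgeR adjusted p = 0.356 and 0.186. Matched on smooth muscle UMIs as well, which include both genes, their log2 ratios were 0.04 and 0.11.

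Other genes called higher code for secreted and signaling proteins. Cpxm2, a secreted carboxypeptidase-like protein, stood at 255, 142, 268 and 397 CPM in libraries 1 to 4 and at 241, 103, 152 and 158 CPM in matched fibroblasts. It was 1.74-fold higher and was found in 59.1% against 40.2% of cells, but without library 4 its log2 ratio of 0.80 was 0.44. Matched on smooth muscle UMIs as well, Cpxm2 had a log2 ratio of 0.40 and was not called. Hhip, which binds Hedgehog ligands, and Dio2, which activates thyroid hormone, had log2 ratios of 0.51 and 0.80 but were each lower in 1 library and not called.

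Genes of growth factor signaling included Ntf3, neurotrophin-3, with 149, 111, 81.7 and 90.2 CPM against 110, 52.0, 63.3 and 57.2 CPM in matched fibroblasts. Its log2 ratio was 0.63 (0.40 to 0.85), and 0.50 without library 2. Gfra2, a receptor for neurturin, had 290, 96.8, 372 and 329 CPM against 274, 59.0, 181 and 177 CPM. It was about level in library 1 (0.08) and between 0.71 and 1.04 in the other libraries, and its ratio over the sums of 0.70 was 0.57 without library 3. Tnfrsf11b, osteoprotegerin, which captures the ligand of the receptor RANK, had 434, 171, 145 and 219 CPM against 337, 97.8, 129 and 70.7 CPM, and its log2 ratio of 0.70 was 0.42 without library 4. Matched on smooth muscle UMIs as well, Ntf3, Gfra2 and Tnfrsf11b had log2 ratios of 0.47, 0.37 and 0.37, and none was called.

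Of the genes with the largest ratios, some rested on few cells. Lypd1, of the Ly6 family of membrane-anchored proteins, had 70.1, 47.4, 44.9 and 130 CPM against 37.5, 31.8, 33.1 and 39.9 CPM. Its log2 ratio was 1.13, and 0.65 without library 4, yet it was found in 18.1% of GFP positive and 14.3% of matched fibroblasts. Myoc, myocilin, a secreted glycoprotein, had a ratio of 1.10 while fewer GFP positive cells held it (7.48% against 11.7%). A single cell held 75 of its 231 UMIs, and without the highest cell of each kind the ratio was 0.65. St5, a regulator of Rab GTPases, was found in 32.3% against 21.6% of cells and had a log2 ratio of 1.06, between 0.64 and 1.19 in the 4 libraries. Pex5l, Lmcd1 (a LIM domain cofactor of GATA factors) and Vgll3 (a cofactor of TEAD factors) had ratios of 0.78, 0.69 and 0.62. Without library 4 the ratios of Lmcd1 and Vgll3 were 0.58 and 0.20, and Cpe (0.59), a carboxypeptidase of peptide processing, and Tspan11 (0.59) completed the genes called higher.

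Has1 and Tnfaip6, named here for their small ratios, both act on hyaluronan. Has1 (ENSMUSG00000003665, mm10 chr17:17843323-17855205, minus strand) codes for a hyaluronan synthase. It stood at 79.4, 45.3, 14.3 and 57.3 CPM in GFP positive fibroblasts of libraries 1 to 4 and at 139, 93.7, 158 and 429 CPM in matched fibroblasts. It was lower in every library, but it was picked by its ratio and its edgeR adjusted p was 0.17. Its log2 ratio was -2.22 (4.67-fold lower), or -1.53 without library 4, and it was found in 11.4% against 21.3% of cells. Tnfaip6 codes for TSG-6, which links proteins to hyaluronan in inflamed tissue. It stood at 35.0, 26.8, 120 and 63.0 CPM against 41.7, 55.3, 335 and 436 CPM, so that libraries 1 and 2 were low in both kinds of cell. Its log2 ratio was -1.97, and -1.26 without library 4.

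Chemokine and cytokine genes had the lowest median of the lists with at least 3 measured genes, -1.10 over 9 measured genes, of which 8 were lower and 4 lower in all 4 libraries (8.16% of all genes were). Ccl2, which attracts monocytes, stood at 42.0, 43.3, 157 and 196 CPM against 122, 218, 370 and 542 CPM in matched fibroblasts. Its neighbour Ccl7 stood at 37.4, 43.3, 172 and 239 CPM against 88.0, 87.0, 649 and 725 CPM. Both genes were lower in every library and were called, with log2 ratios of -1.5 and -1.65. Cxcl1, which attracts neutrophils, was not called, since it was 631 against 570 CPM in library 1 and 408 against 3007 CPM in library 4. Cxcl12, the ligand of CXCR4, was lower in all 4 libraries (log2 ratio -0.47) and under the limit. The list's median within libraries was -0.43, -0.31, -1.23 and -1.29. It was -0.55 without library 3 and -0.62 without library 4.

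Several other genes of innate defense were lower. C3, the central complement component, stood at 168, 138, 476 and 245 CPM against 218, 275, 931 and 615 CPM, with a log2 ratio of -1.03. Of the 7 measured complement genes 6 were lower, with a median of -0.23, and C3 alone was called. Ptx3, a pentraxin that binds microbes and complement, had a log2 ratio of -1.30, and -0.55 when smooth muscle UMIs were matched too. Icam1 (-0.68), an adhesion molecule for leukocytes, and Ptgs2 (-0.90), which makes prostaglandins, were also among the genes called lower. Genes that respond to tissue dissociation were on the low side as well, with a median of -0.14 over 25 genes, 18 lower and 7 higher. Of these Nfkbia (-0.56) and Atf3 (-0.54) had the smallest ratios, Hspa1b (0.33) and Hspa1a (0.20) the largest, and none was called. The part of cell handling in the inflammatory genes was not tested.

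Tcf21 had the smallest adjusted p and was lower in each library. Tcf21 (ENSMUSG00000045680, mm10 chr10:22817281-22820174, minus strand) codes for a basic helix-loop-helix transcription factor of epicardial and fibroblast precursors. It stood at 84.1, 185, 106 and 248 CPM in GFP positive fibroblasts of libraries 1 to 4 and at 222, 462, 262 and 481 CPM in matched fibroblasts. The log2 ratio was -1.39, -1.32, -1.30 and -0.96, and -1.16 over the sums (-1.32 to -1.0). It was found in 41.7% against 55.7% of cells and kept its call when smooth muscle UMIs were matched too (-0.99). The other 6 measured transcription factors of mesoderm and epicardium were not called. Tbx20 had -0.70 and was higher in library 3, and Gata6 (0.28) and Osr1 (0.26) had the largest ratios. Gata4 was below the 50 CPM limit, with 50 UMIs in GFP positive fibroblasts.

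Transcription factors of the neural crest differed little. Of 20 in the list 8 were measured, 5 higher and 3 lower, with a median log2 ratio of 0.07. Prrx2 (0.31) and Msx1 (0.19) had the largest ratios and Snai1 (-0.22) and Twist1 (-0.13) the smallest. Sox10, Pax3 and Foxd3, which mark the neural crest before and during migration, had no UMI in the 254 cells. Of the 20 Hox genes found in the file, which pattern the body axis, none reached 50 CPM.

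Prg4 and Comp, matrix genes of joint and cartilage, were called lower. Prg4, lubricin, stood at 119, 98.9, 449 and 156 CPM against 227, 205, 1751 and 317 CPM and fell by 1.58 on the log2 scale, 1.01 without library 3. Comp, a matrix protein of cartilage and tendon, stood at 392, 272, 382 and 185 CPM against 1139, 427, 483 and 468 CPM and had a log2 ratio of -1.03. The 5 measured genes of the cartilage-type list, with Comp but not Prg4, were divided, 2 higher and 3 lower, with a median of -0.36 over the sums and 0.11 in library 3, and Comp alone was called. Sox9, the transcription factor of chondrocytes, was lower in all 4 libraries and under the limit (168 against 215 CPM, -0.36), while Fmod, fibromodulin, had 0.25. Epyc, a proteoglycan, had a log2 ratio of -1.17 (7.09% against 14.0% of cells). Acan and Col2a1, which define cartilage, had 2 and 1 UMIs.

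Spp1, osteopontin, had the smallest ratio of all, -3.29, and was the least even. It stood at 11.7, 12.4, 26.5 and 28.6 CPM against 610, 142, 65.4 and 102 CPM in matched fibroblasts, but it was found in 5.51% of GFP positive and 4.57% of matched fibroblasts. A single matched cell held 662 UMIs (30.6% of the sum). Without library 1 the log2 ratio was -2.14 and without library 4 -3.90. Among the other matricellular genes, Thbs1 (-1.04) and Thbs2 (-0.83), which code for thrombospondins, were called lower, but not when smooth muscle UMIs were matched too (-0.92 and -0.45, each higher in 1 library). Postn, periostin, was lower in all 4 libraries and under the limit (-0.49). Ctgf was higher in all 4 and under the limit (5494 against 3933 CPM, 0.48).

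Genes of adventitial fibroblast subtypes differed between libraries. The 10 measured genes of the Pi16 and Ly6a type had medians of 0.19 and 0.21 in libraries 1 and 2 and of -1.05 and -1.08 in libraries 3 and 4, and none was called. Over the sums the median was -0.40, and without libraries 1, 2, 3 and 4 in turn it was -0.65, -0.63, -0.27 and -0.18. Ly6a, a membrane marker of progenitor-like fibroblasts, had a log2 ratio of -0.85 over the sums, and Pi16, a peptidase inhibitor that marks this type, of -0.08. Penk, proenkephalin, Vit, vitrin, and Tppp3, a tubulin-binding protein, were called lower with ratios of -1.68, -1.30 and -0.99. The Penk ratio was -4.73 in library 1, where GFP positive cells had 4.67 CPM, and -1.19 without that library.

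**Figure D4:**
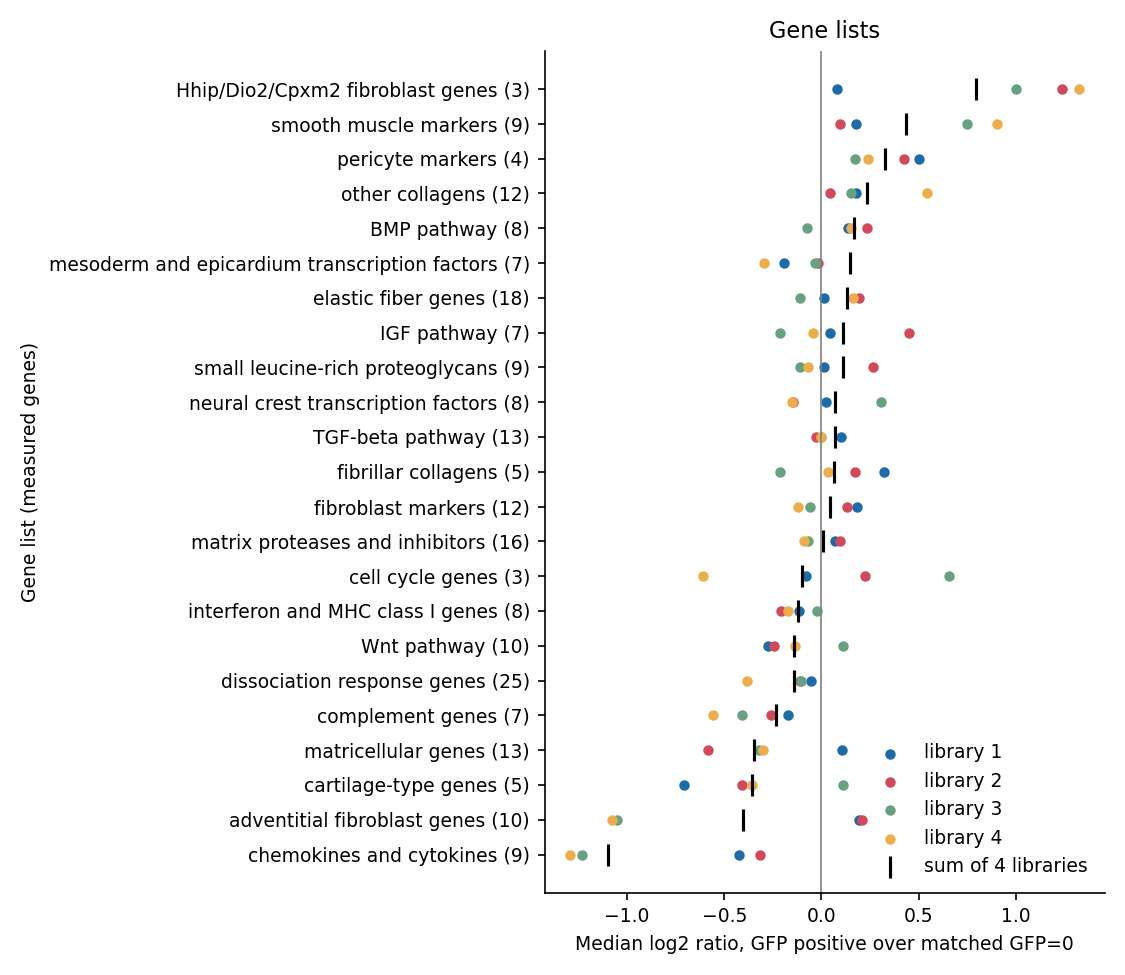
Median log2 ratio of GFP positive over matched GFP=0 fibroblasts for each gene list with at least 3 measured genes (number in parentheses), as dots for libraries 1 to 4 and black bars for the sums. Chemokines and cytokines were lowest (-1.10), the smooth muscle list was higher (0.44), and the adventitial list was above 0 in libraries 1 and 2 and near -1.05 in libraries 3 and 4.

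Pathway lists gave few calls. Of 13 measured TGF-beta pathway genes none was called and the median was 0.07, with Ctgf (0.48) largest and Tgfbi (-0.25) and Tgfb2 (-0.14) smallest. Tgfbr1 itself was below the limit of 50 CPM, with 90 UMIs. Of 8 BMP pathway genes 7 were higher and none was called. Bambi, a decoy receptor, had 0.49 and Bmp4 0.27, each higher in all 4 libraries. The IGF, Wnt, interferon, cell cycle and protease lists had medians of 0.11, -0.14, -0.12, -0.10 and 0.01, with no call.

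GFP=0 fibroblasts with an Rpl10a excess were used to follow the same genes. A group of 282 GFP=0 fibroblasts of libraries 1 to 4 lay above the Rpl10a limit and had not been used as matched cells. They were set beside 1410 others below it, also not used before, matched on library and UMIs. No cell of the first comparison entered this one, but the genes had been picked in the same 4 libraries. Rpl10a is part of the tracer, and smooth muscle UMIs were not matched here. The counts that follow are therefore a description and not an independent test. Of the 14 genes with the largest ratios other than Rpl10a, 13 were higher in the cells with high Rpl10a share, where 51.7% of all measured genes were, with a median log2 ratio of 0.64. Of the 15 genes with the smallest ratios 13 were lower, where 48.3% of all measured genes were, with a median of -1.06. The median over all measured genes was 0.01.

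Values over the sums of these GFP=0 cells differed in how evenly the libraries shared them. Tcf21 (-1.20) was lower in all 4 libraries, with -2.47, -1.61, -0.41 and -1.19 on the log2 scale, and Col4a6 (0.80) and Eln (0.91) were higher in all 4. Has1 (-1.37) was 0.37 and 0.68 in libraries 1 and 2 and -2.21 and -1.71 in libraries 3 and 4. Ccl2 (-1.11) was likewise higher in libraries 1 and 2 (0.28 and 0.23) and lower in libraries 3 and 4 (-1.17 and -1.52). Tagln (1.02) had 0.12 and 0.11 in libraries 1 and 2 and 1.46 and 1.03 in libraries 3 and 4. Myoc (-1.5), Spp1 (1.38) and Comp (0.49) had the opposite sign, and Thbs1 (-0.03) was level. Smooth muscle UMIs were higher here too, 30.0 against 18.4 per cell. In libraries 5 and 6, where only 18 cells lay above the limit, 9 of 14 genes were higher (44.9% of all measured genes were) and 6 of 15 were lower (55.1% were), and Tcf21 had -0.36, Has1 1.49, Ccl2 2.43 and Eln 1.92.

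**Figure D5:**
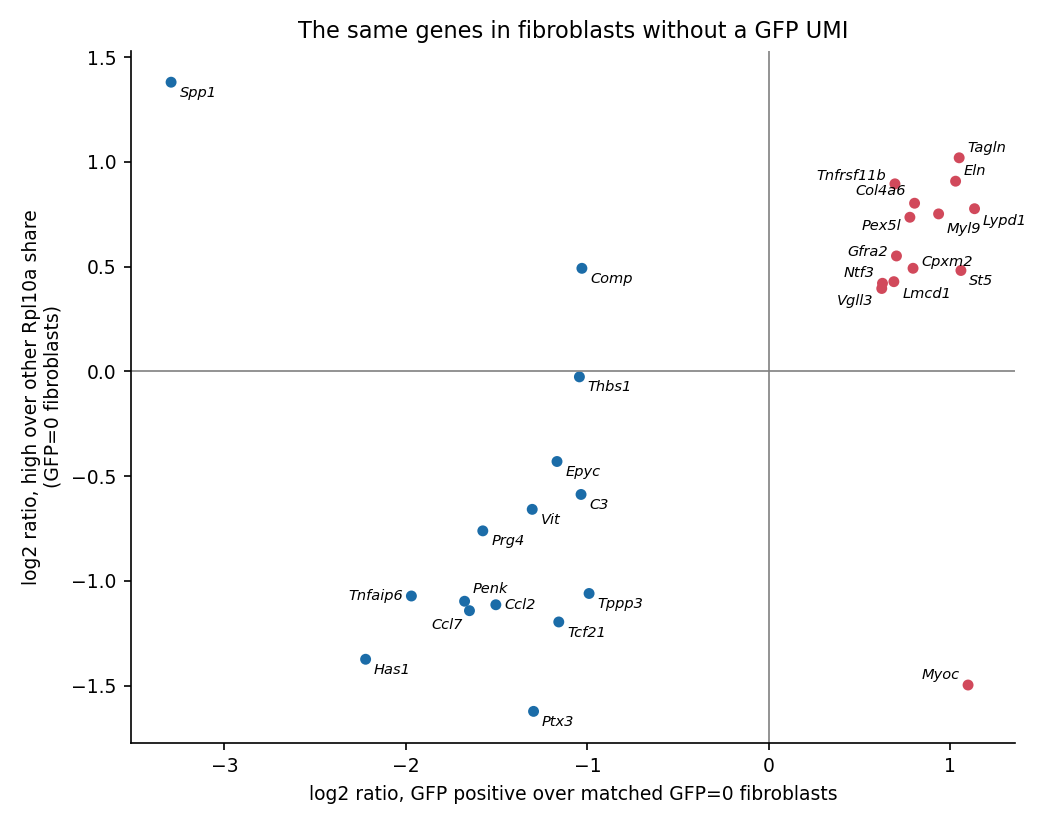
For the 29 named genes other than Rpl10a, the log2 ratio of GFP positive over matched GFP=0 fibroblasts (x axis) and that of GFP=0 fibroblasts with a high over those with a lower Rpl10a share in libraries 1 to 4 (y axis), from separate cells of the same libraries. Red points are the 14 genes at the top and blue points the 15 at the bottom of the first comparison, and Myoc, Spp1 and Comp lie on opposite sides of 0 in the 2 comparisons.

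The same genes were read in GFP positive smooth muscle cells. In 279 GFP positive smooth muscle cells of the same libraries against matched GFP=0 smooth muscle cells, Rpl10a was higher in all 4 libraries with a log2 ratio of 1.05. Eln had 0.33 and was higher in 3 libraries, Tagln had -0.11 and Col4a6 0.04. Tcf21 had 13 UMIs in the GFP positive smooth muscle cells and Has1 had none, so these genes could not be compared there. The difference between the 2 cell types was not tested.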

How the data were processed

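Single-cell suspensions were sorted as DyeCycle Violet positive, propidium iodide negative cells and sequenced with 10x Genomics 3' v3 chemistry. The authors deposited 1 matrix of raw UMI counts (31055 features, 30716 barcodes) for mm10, with no normalization, and barcode and feature names as plain text. The submitters' processing notes name Cell Ranger 6 and the matrix header names 4.0.0. Whether depth was equalized in aggregation is not given in the sources used here. The 2 added features are GFP and Sm3_intact, and the latter had no UMI.

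Cells were kept with over 1000 and under 5000 genes, over 1500 and under 25000 UMIs and under 20% mitochondrial UMIs. Each GFP positive fibroblast was matched to 5 GFP=0 fibroblasts of its library, each used once. UMIs were summed per library and kind of cell, divided by all UMIs (CPM), and compared as log2 ratios with a prior of 0.5 UMI, with exact conditional binomial 95% intervals that cover counting error alone. Genes were called by a rule of size. As an alternative added after the values were seen, edgeR's quasi-likelihood test was run on the summed counts with the library as a block (TMM scaling, Benjamini-Hochberg adjustment over all measured genes, adjusted p under 0.05). Groups of mice were not compared because libraries could not be paired with mice. Doublets were scored with scrublet in scanpy 1.11.5 and kept. edgeR 4.0.16 (R 4.3.3) was used, and Python 3.11.15, numpy 2.4.6 and scipy 1.17.1 did the rest. Both calculations were tested on simulated data. Coordinates are from GENCODE M21, 1-based.

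The members, the 31 gene lists and the rules were chosen with earlier results of these data known. Named genes were the 15 highest and the 15 lowest log2 ratios among measured genes with 1 direction in 4 libraries, and up to 2 of each list at either end. Marker genes of other cells are values of free RNA or of other cells. Cpe, Tspan11, Icam1, Gpx3, Hbb-bs, the lower genes that lost a call, Ptgs2, Thbs2, Gata4, Tgfbr1, Hox genes and further list members were named after their values were seen. Alternatives were other matching, depth, limits, filters and scaling, and each library left out. Some genes of the lists are not reported here.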

Additional observations from a re-analysis of the deposited data

Results flagged for a closer look

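Of 57 values compared across libraries 1 to 4, 2 had a library far from the other 3 by Dixon's criterion for 4 values, where chance sets apart about 1 in 20. The median log2 ratio of the dissociation response genes was -0.38 in library 4, against -0.05, -0.11 and -0.10 in libraries 1, 2 and 3. The log2 ratio of Prg4 was -1.96 in library 3, against -0.93, -1.05 and -1.02 in libraries 1, 2 and 4. In library 5, which lay outside the comparisons because it held 8 GFP UMIs, 4 fibroblasts held a GFP UMI. They were flagged by a fixed count of 3, which is not a test, and their source was not tested.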

How the results depend on the processing

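The counts of 17 genes higher and 27 lower stayed within 1.5 times, sharing 10 to 16 of the 17 and 22 to 27 of the 27 genes, when 10 cells or all GFP=0 fibroblasts were compared, without Myh11 UMIs, with a Dcn limit of 50, without high doublet scores, by medians within libraries and with TMM scaling. Matching on smooth muscle UMIs as well gave 2 and 16. Thinning gave 28 and 44, sharing 12 of the 17 and 24 of the 27. At least 2 GFP UMIs gave 56 and 88 but shared only 6 of the 17 and 8 of the 27. A 20 CPM filter gave 44 and 59, a 100 CPM filter 9 and 17, and no filter 189 and 498. Without 1 library the counts ran from 21 to 32 and from 34 to 53, fewer libraries then having to share a direction. GFP positive cells with a high Rpl10a share, added after the data were seen, gave 27 and 49, sharing 7 of the 17 and 16 of the 27. The edgeR test with the library as a replicate block, also added then, gave 2 and 8, of which 2 and 7 were among those called by size (2 and 4 after matching on smooth muscle UMIs, and 0 to 2 and 0 to 7 without 1 library). The smooth muscle median was 0.0026 after matching on smooth muscle UMIs, and 0.23 to 0.62 without 1 library. The chemokine median was -0.56 after that matching, -0.47 with a Dcn limit of 50, -0.57 without high doublet scores and -1.16 to -0.55 without 1 library. The adventitial median was -0.65 to -0.18 without 1 library. Thinned shares of fibroblasts with a GFP UMI were 1.60%, 0.957%, 0.844% and 1.42% in libraries 1 to 4 and 1.19% pooled. With at least 2 GFP UMIs the pericyte median turned to -0.32 and Myoc to -0.079, and Myoc was -0.87 in cells with a high Rpl10a share. The cause was not tested. LDS and CTL were not compared, since the replicate numbers of the labels cannot be tied to libraries. The number of GFP positive cells and of GFP UMIs in each limits these values.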

Other observations

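GFP positive fibroblasts differed little in mitochondrial share from matched fibroblasts. The median mitochondrial share was 2.28%, 1.88%, 1.97% and 2.05% in libraries 1 to 4 against 2.61%, 1.85%, 1.91% and 2.12%. Before matching, GFP positive fibroblasts were deeper than the other fibroblasts of these libraries (median 7622 against 6132 UMIs), and after it the medians were 7793, 11762, 8310.0 and 6085 against 7787, 11784, 8313.5 and 6084.5 in libraries 1 to 4.

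Among pericyte markers, Abcc9, a subunit of potassium channels, and Pdgfrb, a receptor of mural cells and fibroblasts, were higher in GFP positive fibroblasts in all 4 libraries (183 against 135 CPM and 131 against 107 CPM). Both lay under 1.5-fold, and Higd1b, which defines pericytes, had no UMI.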
